A study of Malus domestica with 6 samples.

Results

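MdMa1 (MD16G1045200) is the apple fruit acidity gene, an aluminium-activated malate transporter on chromosome 16. It was taken by its identifier, as 1 of the 46558 genes of the deposited expression table, and set against the 24 genes whose identifiers lie around it on the same chromosome, from MD16G1044000 to MD16G1046500. The identifiers are those of the GDDH13 apple genome. Transcript levels had been measured by RNA-seq in fruit pulp of 2 apple cultivars (Malus domestica), Granny Smith, a green-skinned acid apple, and Jonagold, a red-skinned cross of Jonathan and Golden Delicious. There were 3 libraries per cultivar, each from a separate pool of fruits. All fruits were grown unbagged on the same rootstock and picked fully ripe at the same orchard, so that the labels of the groups differed only in cultivar and skin color. The fruits still differed in measured traits, and the paper reports higher internal ethylene and lower titratable acidity for Jonagold.

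Malic acid is the main organic acid of apple flesh and is stored in the vacuole, where it sets much of the sourness of the fruit. Aluminium-activated malate transporters are channels for organic anions, and Ma1 lies at the vacuolar membrane and lets malate into the vacuole. Proton pumps of the same membrane build the gradient that drives this uptake. Ma1 is known as the major acidity locus of apple, and an allele with a premature stop codon is known from low-acid fruit. FPKM values (read fragments scaled by transcript length and library size) count the reads of all alleles of a gene together, so these data do not tell the alleles apart. The deposited table pairs no identifier with a name, the gene table used matched none of the identifiers, and the study's supplement names none of the neighbours. The other genes of malate uptake and the marker genes of pulp were not analysed here, and no sequence of MdMa1 is shown.

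MdMa1 was clearly expressed in the pulp of both cultivars. It measured 39.9, 26.2 and 31.8 FPKM in Granny Smith replicates 1, 2 and 3, and 26.6, 23.4 and 27.6 FPKM in Jonagold replicates 1, 2 and 3. Granny Smith replicate 1 was the highest library, and Granny Smith replicate 2 fell below Jonagold replicates 1 and 3, so that the cultivars overlapped. Granny Smith averaged 32.6 ± 6.87 FPKM and Jonagold 25.9 ± 2.22 FPKM (SD, n = 3), a ratio of 1.26 in favour of Granny Smith. In pulp, fewer cells that express a gene and less of its RNA per cell cannot be told apart.

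**Figure D1:**
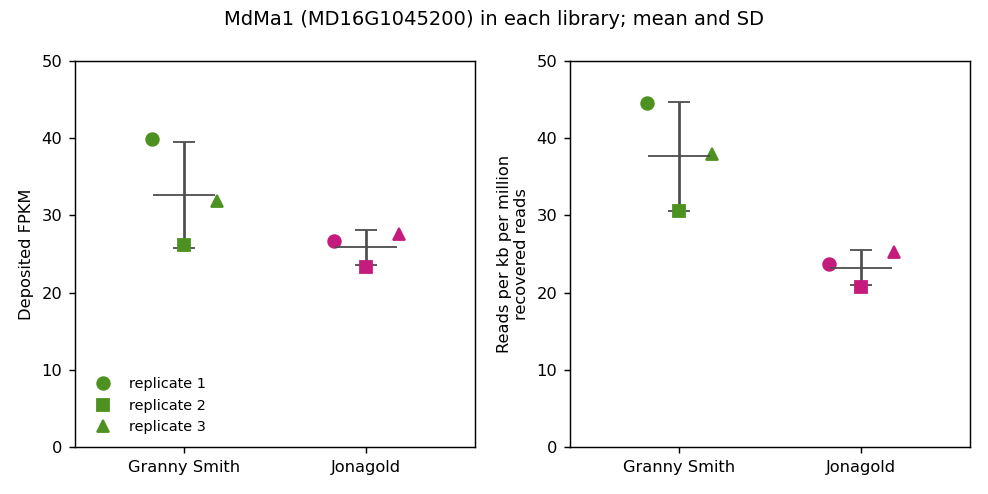
MdMa1 in each library, as deposited FPKM (left) and as read rate (right), which is reads per kilobase and per 1000000 recovered reads. Points are libraries, horizontal bars the mean and error bars the SD of 3 libraries. On the left Granny Smith replicate 2, at 26.2, sits below 2 of the Jonagold libraries, and on the right all 3 Granny Smith libraries, from 30.5 to 44.6, sit above the Jonagold libraries, from 20.7 to 25.2.

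Within the libraries MdMa1 stood among the more abundant transcripts. Its FPKM exceeded that of 86.9% to 91.0% of the genes above 0 in the Granny Smith libraries, and of 84.8% to 86.9% in the Jonagold libraries. By the mean over the 6 libraries, its level was above that of 82.6% of the 20993 tested genes and of 81.0% of the 1213 tested genes of chromosome 16. Genes were tested when this mean was at least 1 FPKM.

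On log2(FPKM + 1), the log2 fold change of MdMa1 (Jonagold over Granny Smith) was -0.31 (SE 0.16, limma adjusted p = 0.14). Its 95% interval ran from -0.67 to 0.05, which corresponds to a Jonagold level of 0.628 to 1.04 times that of Granny Smith. To be called, a gene needed an adjusted p-value below 0.05 together with a change of at least 2-fold, and MdMa1 was not called. By comparison, 21.3% of the tested genes were called, and 49.4% had an adjusted p-value below 0.05 whatever their fold change. The absolute change was smaller than that of MdMa1 in 38.2% of the tested genes. An exact permutation test over the 6 libraries gave p = 0.3 (two-sided), where 0.1 is the smallest p that 3 against 3 libraries allow.

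**Figure D2:**
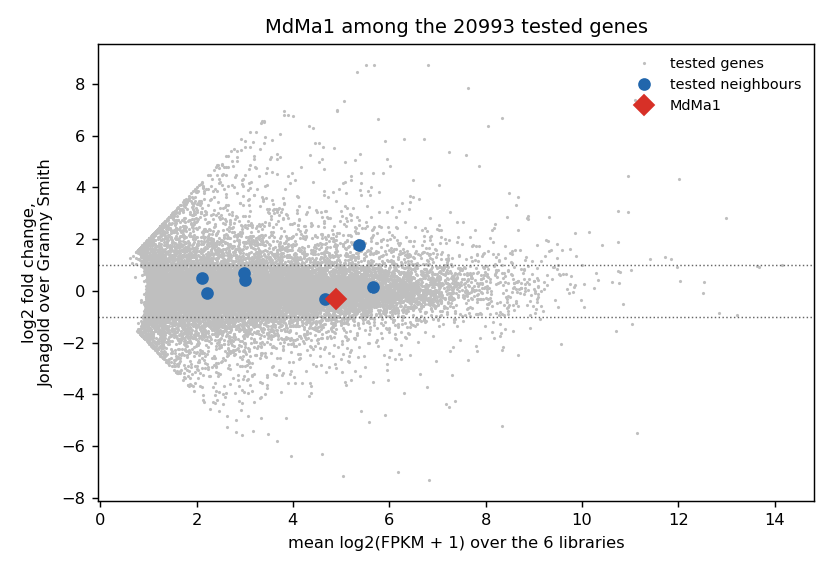
Log2 fold change (Jonagold over Granny Smith) against mean log2(FPKM + 1) for the 20993 tested genes in grey, the 7 tested neighbours in blue and MdMa1 in red. Dotted lines mark a 2-fold change, and MdMa1, at -0.31, lies between them.

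Of the single libraries, Granny Smith replicates 1 and 2 moved the difference most when left out. Without Granny Smith replicate 1 the log2 fold change of MdMa1 was -0.16 (limma adjusted p = 0.39), and without Granny Smith replicate 2 it was -0.45 (limma adjusted p = 0.040). With any other library left out it lay between -0.35 and -0.24. Scaling the libraries to equal totals of recovered reads, which is described further on, moved it more, to -0.66. The coefficient of variation of MdMa1 was 21.1% in Granny Smith and 8.60% in Jonagold. Among the 2864 tested genes within 1.5-fold of its mean FPKM, the median was 10.2% in Granny Smith and 10.4% in Jonagold, and 87.5% of them varied less than MdMa1 among the Granny Smith libraries. Spread of this size was larger than counting error, which ranged from 2.8% to 4.2% of the value at the read counts given next.

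The deposited FPKM values proved to be whole reads divided by 1 length per gene and 1 denominator per library, so that the reads behind MdMa1 could be recovered. MdMa1 had 1263, 868 and 1070 reads in Granny Smith replicates 1, 2 and 3, with exact Poisson 95% intervals of 1194 to 1335, 811 to 928 and 1007 to 1136. It had 584, 575 and 599 reads in Jonagold replicates 1, 2 and 3, with intervals of 538 to 633, 529 to 624 and 552 to 649. These intervals cover counting error only. The intervals of the 3 Granny Smith libraries, which had similar read totals, did not overlap. Per 1000000 recovered reads the counts were 71.0, 48.5 and 60.4 in Granny Smith replicates 1, 2 and 3 and 37.8, 33.0 and 40.1 in Jonagold replicates 1, 2 and 3. The coefficient of variation of these rates was 18.7% in Granny Smith and 9.84% in Jonagold, while the raw Jonagold counts, from libraries of unequal depth, varied by 2.07%. The length behind the FPKM of MdMa1 was 1591 bases, or a whole multiple of it that is shared by all genes.

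The depth of the libraries and the denominators of the FPKM values did not move together. Recovered reads summed to between 17728999 and 17882854 in the Granny Smith libraries and to between 14924279 and 17425438 in the Jonagold libraries, and the Granny Smith mean was 1.12 times the Jonagold mean. The FPKM denominators of Granny Smith were on average 1.44 times those of Jonagold. They were 1.12 to 1.19 times the recovered reads in Granny Smith and 0.888 to 0.914 times the recovered reads in Jonagold. A read therefore added more FPKM in Jonagold than the read totals alone would give.

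When the libraries were scaled to equal totals of recovered reads, MdMa1 was lower in Jonagold than in Granny Smith in every library. The read rates, as reads per kilobase and per 1000000 recovered reads, were 44.6, 30.5 and 37.9 in Granny Smith replicates 1, 2 and 3, and 23.8, 20.7 and 25.2 in Jonagold replicates 1, 2 and 3. The cultivars did not overlap on this scale, which was also true of 66.9% of all tested genes, against 59.6% on the FPKM scale. Granny Smith averaged 37.7 ± 7.05 and Jonagold 23.2 ± 2.29 (SD, n = 3). On log2(value + 1) the log2 fold change of MdMa1 was -0.66 (SE 0.15, limma adjusted p = 0.0057), with a 95% interval from -1.01 to -0.32, so that the fold change criterion of 2 was not met. On this scale 60.0% of the tested genes had an adjusted p-value below 0.05.

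This scaling replaced the library denominators that the deposited values already carried, and it moved all genes. The median log2 fold change of the tested genes was 0.00 on the FPKM scale and -0.31 with equal read totals. Relative to that median, MdMa1 stood at -0.31 on the FPKM scale and at -0.35 with equal read totals. The 100 most abundant genes took 20.9% to 23.2% of the recovered reads in the Granny Smith libraries and 30.8% to 35.8% in the Jonagold libraries. With totals counted outside these genes, a setting chosen after seeing the data, the log2 fold change of MdMa1 was -0.44 (limma adjusted p = 0.034).

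**Figure D3:**
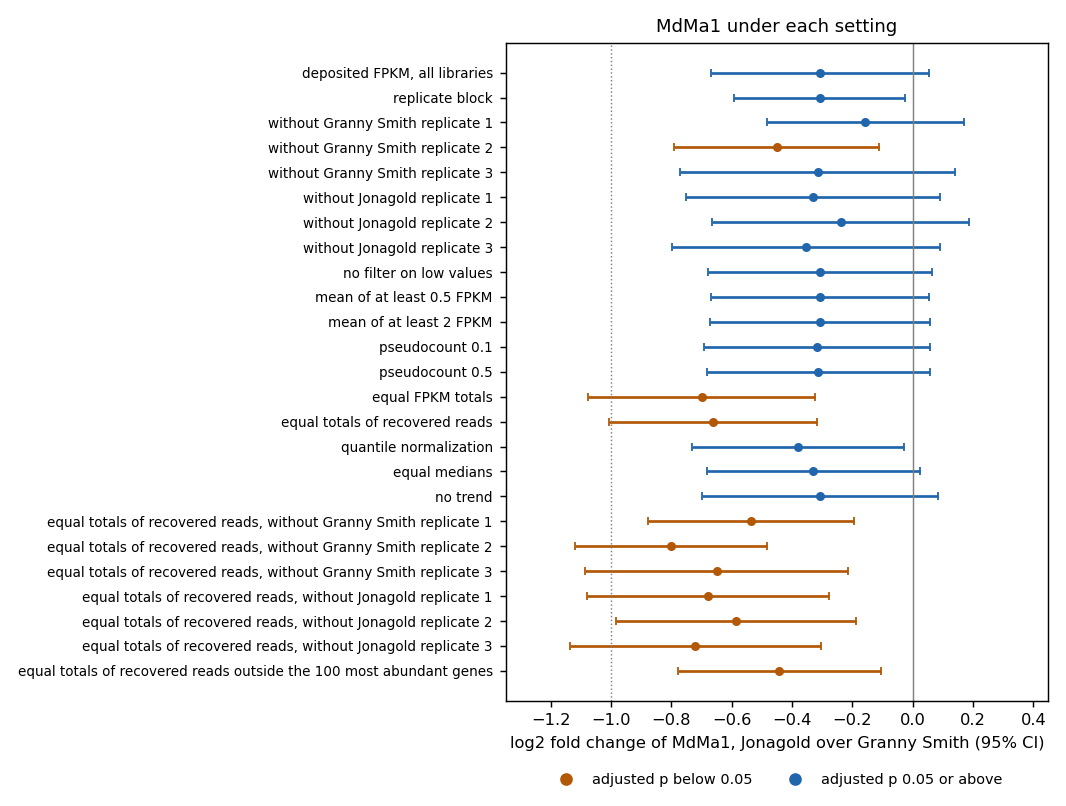
Log2 fold change of MdMa1 (Jonagold over Granny Smith) with its 95% interval under each setting, in orange where the adjusted p-value from limma was below 0.05 and in blue elsewhere. The estimate is below 0 in every setting shown, from -0.80 to -0.16, and none reaches the 2-fold line at -1.

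MdMa1 lay among genes of very unequal expression. Of the 24 neighbours, 10 were listed at 0 in all 6 libraries, and 3 more never exceeded 3 reads in a library. Another 4 were above this floor but below the minimum mean, and 7 neighbours were tested. MD16G1045400 had the highest mean FPKM of the neighbours, and it was 1 of 2 neighbours whose mean was above that of MdMa1. The identifiers follow the order of the genes on the chromosome, but no distances in bases were used.

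The neighbour next to MdMa1 at higher identifiers had a similar level and a similar difference. MD16G1045300 measured 31.1, 28.9 and 23.1 FPKM in Granny Smith replicates 1, 2 and 3, and 21.1, 22.4 and 21.5 FPKM in Jonagold replicates 1, 2 and 3. Every Granny Smith value was above every Jonagold value. Its log2 fold change was -0.33 (SE 0.13, limma adjusted p = 0.062), and -0.68 (limma adjusted p = 0.0013) with equal read totals. The ratio of MdMa1 to MD16G1045300 within a library, which does not depend on library scaling, was 1.28, 0.906 and 1.38 in Granny Smith and 1.26, 1.04 and 1.28 in Jonagold. These ratios overlapped, and their log2 difference of 0.03 gave p = 1.0 in an exact permutation test (two-sided, 1.0 after adjustment over the 4 ratios tested). Both genes were high in Granny Smith replicate 1, but in Granny Smith replicate 2 MdMa1 was below and MD16G1045300 above its own mean for the cultivar.

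MD16G1045400, the following gene, had a slightly higher mean FPKM in Jonagold. It measured 51.6, 43.4 and 46.3 FPKM in the Granny Smith libraries and 59.7, 47.4 and 51.7 FPKM in the Jonagold libraries, with overlap between the cultivars. Its log2 fold change was 0.16 (SE 0.12, limma adjusted p = 0.31). It turned to -0.20 with equal read totals, where the median of all tested genes was -0.31. Within the libraries MdMa1 stood at 0.773, 0.603 and 0.688 times the FPKM of MD16G1045400 in Granny Smith and at 0.446, 0.492 and 0.534 times in Jonagold. The ratios did not overlap and differed by -0.48 on the log2 scale, with p = 0.1 (exact permutation test, two-sided, 0.13 after adjustment over the 4 ratios), the smallest p this design allows before adjustment.

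On the FPKM scale the tested neighbours at lower identifiers were higher in Jonagold. MD16G1045100 measured 2.43, 2.81 and 2.63 FPKM in the Granny Smith libraries and 3.46, 4.45 and 4.72 FPKM in the Jonagold libraries, without overlap, from 65 to 94 reads per library. Its log2 fold change was 0.52 (SE 0.15, limma adjusted p = 0.020). MD16G1044600 measured 6.30, 5.49 and 6.02 FPKM in the Granny Smith libraries and 9.63, 6.84 and 8.70 FPKM in the Jonagold libraries, also without overlap, with a log2 fold change of 0.43 (SE 0.15, limma adjusted p = 0.039). Both differences were smaller with equal read totals, at 0.24 (limma adjusted p = 0.22) and 0.11 (limma adjusted p = 0.55), and the cultivars then overlapped in both genes. The median of all tested genes moved down with this scaling as well, from 0.00 to -0.31.

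Against each of these genes the level of MdMa1 was lower in Jonagold. MdMa1 was 16.4, 9.31 and 12.1 times MD16G1045100 in Granny Smith and 7.71, 5.25 and 5.84 times in Jonagold, a log2 difference of -0.99. It was 6.33, 4.77 and 5.29 times MD16G1044600 in Granny Smith and 2.77, 3.42 and 3.17 times in Jonagold, a log2 difference of -0.81. Neither ratio overlapped between the cultivars, and both gave p = 0.1 in the exact permutation test (0.13 after adjustment over the 4 ratios). Of the 4 ratios, only that to MD16G1045300 overlapped.

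**Figure D4:**
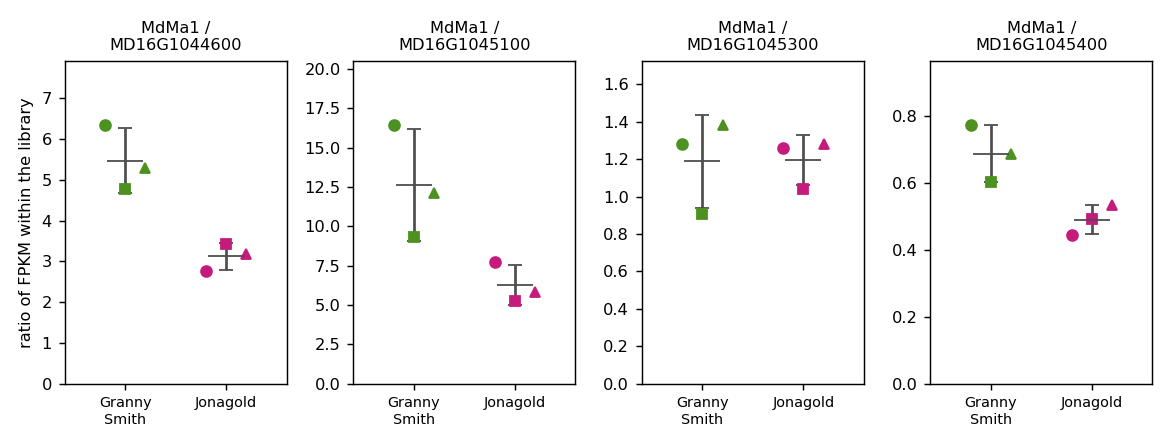
FPKM of MdMa1 divided by that of each of the 2 nearest tested genes on either side, within each library. Points are libraries (circle, square and triangle for replicates 1, 2 and 3), horizontal bars the mean and error bars the SD of 3 libraries. The Granny Smith ratios lie above the Jonagold ratios for 3 of the neighbours, and for MD16G1045300 the cultivars overlap at means of 1.19 and 1.20.

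The window held 1 called neighbour of the 7 tested, where 21.3% of all tested genes were called and 12.0% were called higher in Jonagold. This gene, MD16G1044200, measured 21.7, 20.4 and 22.2 FPKM in the Granny Smith libraries and 88.9, 74.1 and 67.2 FPKM in the Jonagold libraries. Its level in Jonagold was 3.58 times that in Granny Smith, and its log2 fold change was 1.79 (SE 0.12, limma adjusted p = 1.4e-05). MdMa1 was more abundant than MD16G1044200 in all 3 Granny Smith libraries and less abundant in all 3 Jonagold libraries. Between the 2 genes lay 3 tested genes, MD16G1044300, MD16G1044600 and MD16G1045100, none of which was called.

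Over the whole window the 7 tested neighbours had a median log2 fold change of 0.43, while all tested genes had one of 0.00. The mean on the log2 scale was higher in Jonagold in 5 of the neighbours and lower in 2, MD16G1045300 and MD16G1046400. The adjusted p-value was below 0.05 in 4 neighbours (49.4% of all tested genes), and 5 neighbours did not overlap between the cultivars (59.6% of all tested genes). With equal read totals 3 neighbours had an adjusted p-value below 0.05 (60.0% of all tested genes), 2 of them higher in Jonagold. The median of the neighbours was then 0.11, while that of all tested genes was -0.31.

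Set against the median of the 7 neighbours in the same library on log2(FPKM + 1), MdMa1 stood 2.49, 2.07 and 2.20 above it in Granny Smith replicates 1, 2 and 3 and 1.38, 1.30 and 1.54 above it in Jonagold replicates 1, 2 and 3. The values did not overlap. Granny Smith averaged 2.25 ± 0.214 and Jonagold 1.41 ± 0.123 (SD, n = 3). The difference was -0.84, with p = 0.1 in an exact permutation test (two-sided), the smallest p that is possible here. With no minimum mean, which brought the neighbours to 14, the cultivars overlapped and the difference was -0.44 (exact permutation p = 0.3). The log2 fold changes behind this difference moved with the scaling. The log2 fold change of MdMa1 and the median of the 7 neighbours were -0.31 and 0.43 on the FPKM scale, and -0.66 and 0.11 with equal read totals. Both moved down along with the median of all tested genes, which was 0.00 on the FPKM scale and -0.31 with equal read totals.

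**Figure D5:**
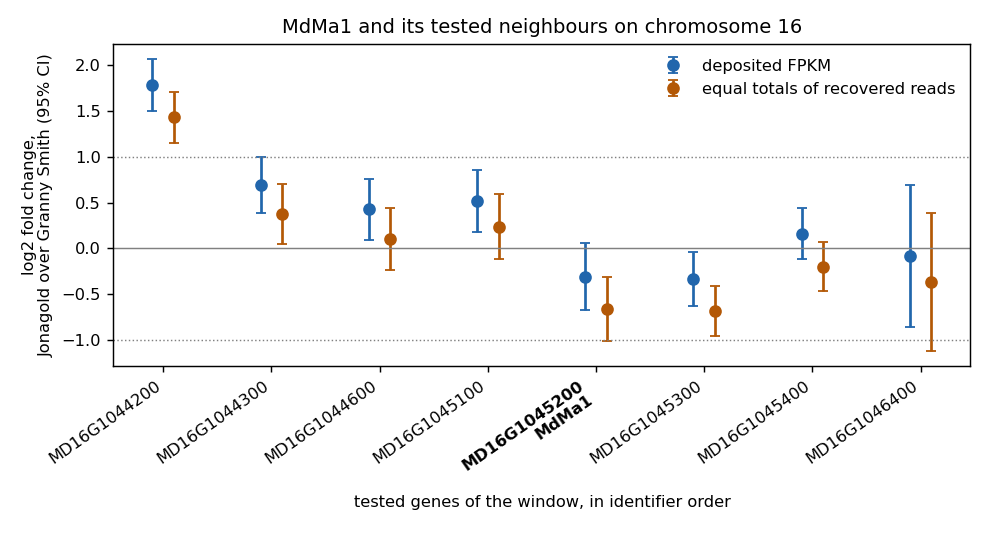
Log2 fold change (Jonagold over Granny Smith) with its 95% interval for MdMa1 and its 7 tested neighbours in identifier order, from the deposited FPKM (blue) and with equal totals of recovered reads (orange). Dotted lines mark a 2-fold change. MD16G1044200 lies above it at 1.79, MdMa1 and MD16G1045300 lie side by side at -0.31 and -0.33, and equal read totals lower every gene.

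The genes most like MdMa1 in their pattern lay on other chromosomes. Likeness was measured over the 6 libraries as the Euclidean distance between log2(FPKM + 1) values after each gene's own mean was subtracted. MD15G1216100 on chromosome 15 was the nearest of 20992 genes, at a distance of 0.095, with 49.8, 35.8 and 41.2 FPKM in the Granny Smith libraries and 35.3, 31.5 and 36.2 FPKM in the Jonagold libraries. MD10G1208700 on chromosome 10 followed at 0.097, with 20.8, 13.8 and 17.1 FPKM in the Granny Smith libraries and 13.4, 12.5 and 13.8 FPKM in the Jonagold libraries. Both were highest in Granny Smith replicate 1, as was MdMa1, a likeness that their choice by distance favoured. The pattern was not rare, since 2265 genes lay within a distance of 0.5, where the median over all genes was 0.920. MD16G1045300 was among them at 0.496, with 2203 genes nearer to MdMa1.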

How the data were processed

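RNA was sequenced from pulp of Granny Smith and Jonagold apples, with 3 libraries each. After read filtering and mapping to the GDDH13 genome, the authors used Cufflinks for quantification and deposited the levels of each library as FPKM. GDDH13 derives from Golden Delicious, a parent of Jonagold. The study's supplement nevertheless reports a lower share of mapped reads in every Jonagold library than in any Granny Smith library. Whether this bears on the reads of MdMa1 was not tested. The processing notes sent to GEO name the aligner Bowtie 0.12.2 beside the mouse builds mm8 and mm9, which are no builds of apple, and no other source used here names an aligner.

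The 6 columns were matched to samples by title. Values were modelled as reads divided by a gene length and a library denominator. Whole reads (within 0.02 of a whole number) were obtained for all 34279 genes above 0. Many lengths were tried for each gene, so a gene above 0 in few libraries would fit some length in any case. For such genes the whole reads are no check of the model. For low genes a divisor common to all libraries cannot be told apart from a shorter gene. The recovery was also run on test data with known reads, and the recovered reads were compared with these for genes above 0 in all libraries. Recovered lengths were not compared.

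The cultivars were compared with limma 3.58.1 (R 4.3.3; lmFit, eBayes with trend) on log2(FPKM + 1) over genes whose mean reached 1 FPKM, with Benjamini-Hochberg adjustment over all genes tested. The recovered reads were used for scaling only, and no count test was run. The fit was tested on simulated data. Exact permutation tests were two-sided (Python 3.11.15, scipy 1.17.1).

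MdMa1, its window and the tests were chosen with earlier results of these data known. Genes named in full were MdMa1, the 2 nearest tested genes on each side, the most abundant and the called neighbour, and the 2 genes of most similar pattern. Alternatives covered a replicate block, the omission of each library, other minimum means and pseudocounts, other scalings, no trend, other fold change criteria and another window.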

Additional observations from a re-analysis of the deposited data

How the results depend on the processing

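The log2 fold change of MdMa1 stayed below 0, and under the 2-fold criterion, in every setting run. Its adjusted p-value passed 0.05 with equal FPKM totals (log2 fold change -0.70), equal totals of recovered reads (-0.66) and, chosen after seeing the data, equal read totals outside the 100 most abundant genes (-0.44). It did not pass with quantile normalization, which gives all libraries the same distribution of values (-0.38, limma adjusted p = 0.068). Nor did it pass when the libraries were set to equal medians (-0.33, limma adjusted p = 0.11). Leaving out each library gave -0.45 to -0.16 on the FPKM scale, past 0.05 only without Granny Smith replicate 2, and -0.80 to -0.54 with equal read totals (-0.54, -0.80 and -0.65 without Granny Smith replicates 1, 2 and 3, and -0.68, -0.59 and -0.72 without Jonagold replicates 1, 2 and 3), past 0.05 each time. Whether the replicate numbers pair the samples was not tested, and the main fit did not pair them. Deviations of equal-numbered libraries correlated at 0.16, 0.28 and -0.03, and only replicates 1 and 2 of each cultivar correlated best with their own number. With the replicate block MdMa1 kept -0.31 (standard error 0.12, adjusted p = 0.068 from limma), and 4501 genes were called in place of 4475.

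The called genes, 2515 higher and 1960 lower in Jonagold, became 1845 higher and 3362 lower with equal FPKM totals and 1904 higher and 3178 lower with equal read totals. Their number moved to 2066 when a change beyond 2-fold was tested and to 10371 by the adjusted p-value alone. By the adjusted p-value alone 4 neighbours passed in place of 1. MdMa1 relative to its neighbours kept its direction in all 15 alternatives, from -0.94 to -0.44, the smallest with no minimum mean, where the cultivars overlapped. With 1 library left out the smallest possible exact p is 0.2, so these fits are no test of stability. Reads limited MdMa1 little, at 575 or more per library, but the tested neighbour MD16G1046400 had as few as 21.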

Other observations

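Of the 2519 identifiers of chromosome 16, 1213 were tested and 258 were called, where 21.3% of all tested genes were called. Of these, 151 were higher and 107 lower in Jonagold, and this balance turned to 106 higher and 171 lower with equal totals of recovered reads and to 103 higher and 182 lower with equal FPKM totals. Between MdMa1 and the nearest called gene lay 3 tested genes on the side of lower identifiers and 11 on the side of higher identifiers. This stretch was looked at after the values were seen, and no test was run on it.

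The untested neighbour MD16G1045000 had 1 read in Jonagold replicate 2 and none in the other libraries, and the neighbours MD16G1044800 and MD16G1044900 were listed at 0 in all of them. MD16G1044700, below the minimum mean, had 15, 19 and 17 reads in Granny Smith and 12, 29 and 25 reads in Jonagold. These genes were chosen after their values were seen.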
